A study of Mus musculus with 8 samples.

Results

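The clustered histone genes were followed across blood cell stages and tissues in single-cell RNA from tumor-bearing mice. They were taken as every gene whose name starts with Hist1h, Hist2h, Hist3h or Hist4h, which gave 67 of the 32285 genes measured. C57BL6/J female mice carried MOPC cells, a murine oropharyngeal carcinoma line, under the skin of the flank. Blood, bone marrow, spleen and tumor were each sorted for live Gr1+ cells negative for NK1.1, FcRe, Ter119, B220 and CD3, together with live Gr1- cKit+ cells, and each tissue was loaded as 1 droplet library, all labelled as batch 1. Within a tissue, 8 hashtag antibodies marked mouse, organ and condition. All animals carried the tumor. Wild-type animals and a gene knockout model called Genotype_02 were mixed in every tissue, and the labels used here do not tie a hashtag to a genotype. Tumors were digested with enzymes, and red cells were lysed in all tissues.

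Histones are the proteins around which DNA is wrapped. The core histones H2A, H2B, H3 and H4 form the nucleosome, and H1 binds the linker DNA between nucleosomes. Genes of the histone clusters are best known for being transcribed when a cell copies its DNA, and most of their mRNAs end in a stem-loop in place of a poly(A) tail, with the stem-loop-binding protein Slbp acting in their processing. Myeloid progenitors and early neutrophils divide in the bone marrow, whereas neutrophils that leave it no longer do. How the capture chemistry of these libraries read mRNAs without a poly(A) tail is not given in the sources used here, and its part in the counts was not tested.

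Of the 67 genes, 6 encode H1, 18 H2A, 18 H2B, 12 H3 and 13 H4. The large cluster on chromosome 13 held 54 of them, the cluster on chromosome 3 held 10, and 2 and 1 lay on chromosomes 11 and 6. RefSeq (GRCm38.p6, the assembly behind mm10) matched 66 of them to a single gene, with a median span of 492.5 bases. Spans over 1000 bases belonged to 6 genes: Hist1h2be, Hist1h2bp, Hist1h2bc, Hist1h2bq, Hist1h2br and Hist2h2be, all of them H2B genes. Hist1h2ap matched more than 1 RefSeq gene and is given without coordinates. Hist1h1b (ENSMUSG00000058773) lies at chr13:21779832-21780625, and Hist1h2bc (ENSMUSG00000018102) at chr13:23684199-23692480 beside the H2A gene Hist1h2ac (ENSMUSG00000069270, chr13:23683473-23683959). Another RefSeq gene overlaps 5 members, among them Hist1h2be (Gm33387) and Hist3h2a (Trim17), and whether counting used the strand is not given in the sources used here.

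The upstream sequences of 6 members are shown, since these members carry the contrasts below: 5 that were high in dividing cells (Hist1h1b, Hist1h2ab, Hist1h2bb, Hist1h3c and Hist1h4d) and Hist1h4i, an H4 gene that was highest in blood neutrophils. Each run is the 250 bases before the RefSeq start on the strand of the gene, 5′ to 3′, and capitals mark the octamer ATTTGCAT, CCAAT and TATAAA on either strand.
Hist1h1b, chr13:21780626-21780875, minus strand: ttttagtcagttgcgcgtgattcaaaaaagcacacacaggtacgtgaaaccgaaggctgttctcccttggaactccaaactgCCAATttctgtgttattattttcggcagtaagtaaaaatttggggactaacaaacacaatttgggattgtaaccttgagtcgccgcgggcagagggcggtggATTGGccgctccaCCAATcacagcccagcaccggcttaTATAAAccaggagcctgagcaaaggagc
Hist1h2ab, chr13:23750838-23751087, plus strand: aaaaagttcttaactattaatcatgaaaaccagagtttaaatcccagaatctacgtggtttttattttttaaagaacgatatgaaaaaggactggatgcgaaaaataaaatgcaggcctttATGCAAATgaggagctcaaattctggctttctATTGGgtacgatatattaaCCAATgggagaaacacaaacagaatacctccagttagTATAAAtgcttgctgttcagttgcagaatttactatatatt
Hist1h2bb, chr13:23746484-23746733, plus strand: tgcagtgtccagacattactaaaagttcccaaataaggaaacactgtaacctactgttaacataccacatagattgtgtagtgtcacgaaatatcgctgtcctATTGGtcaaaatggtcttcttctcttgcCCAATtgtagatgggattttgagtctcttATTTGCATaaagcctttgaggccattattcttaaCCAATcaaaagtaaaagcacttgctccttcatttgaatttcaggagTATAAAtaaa
Hist1h3c, chr13:23745522-23745771, minus strand: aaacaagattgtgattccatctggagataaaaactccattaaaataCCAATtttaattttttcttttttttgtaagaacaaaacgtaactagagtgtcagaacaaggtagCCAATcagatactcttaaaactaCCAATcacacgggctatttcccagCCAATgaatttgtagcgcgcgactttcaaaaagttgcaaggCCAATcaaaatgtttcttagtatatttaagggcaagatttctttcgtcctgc
Hist1h4d, chr13:23581318-23581567, plus strand: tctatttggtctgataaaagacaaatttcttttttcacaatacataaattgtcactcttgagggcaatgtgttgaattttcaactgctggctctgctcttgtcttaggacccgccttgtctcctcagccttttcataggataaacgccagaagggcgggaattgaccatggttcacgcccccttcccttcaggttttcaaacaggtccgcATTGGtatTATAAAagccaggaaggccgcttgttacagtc
Hist1h4i, chr13:22041363-22041612, minus strand: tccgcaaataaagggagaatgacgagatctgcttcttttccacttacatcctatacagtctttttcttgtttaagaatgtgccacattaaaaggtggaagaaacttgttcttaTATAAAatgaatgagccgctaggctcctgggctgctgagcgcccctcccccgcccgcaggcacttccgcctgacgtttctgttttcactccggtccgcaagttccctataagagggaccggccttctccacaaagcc
Hist1h2ab and Hist1h2bb each hold 1 octamer, and Hist1h3c holds 5 CCAAT and no TATAAA. The stretch of Hist1h4i has 1 TATAAA and neither of the other motifs, while Hist1h4d has 1 CCAAT and 1 TATAAA.

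These motifs were counted in RefSeq windows of 300 bases (250 before to 50 after a start), of which 62 belonged to 61 members. The octamer stood in 14 member windows (22.6%) against 1.74% of all 32851 windows. All 14 were H2A or H2B windows, 7 of 17 for each, and none of the 6 H1, 10 H3 and 12 H4 windows held it. CCAAT stood in 53 member windows (85.5%) against 37.4% of all windows, and H4 was apart with 3 of 12, while all windows of the other classes held it. TATAAA stood in 35 member windows (56.5%) against 13.6% of all. A match is a run of letters and not a shown binding site. Each motif was searched on both strands, and matches of different motifs were counted separately even where they overlapped.

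Cells were placed in stages by simple expression rules, taken in this order so that no cell was in more than 1 class. Immature neutrophils had at least 1% of their UMIs (unique molecular identifiers, the counted RNA molecules) from the granule genes Camp, Ngp and Ltf. Mature neutrophils had at least 3% from S100a8 and S100a9, or 1% in tumor. Kit-positive cells had at least 1 UMI of Kit, the stem cell factor receptor, and monocytes at least 2 of Ly6c2 and 1 of Csf1r. A UMI of Mki67 or Top2a, genes of dividing cells, split the immature neutrophils into cycling and non-cycling cells. Before the order was applied, 2302 of 2321 immature cells also met the mature rule, and 485 cells met both the mature and the Kit rule. UMIs were summed per hashtag, tissue and class, and these sums are the replicates: n is the number of hashtags with at least 20 cells, or 5 in tumor. Levels are a gene's UMIs per 1000000 UMIs of the sum (CPM). A member was called higher or lower where edgeR's quasi-likelihood test gave a Benjamini-Hochberg adjusted p under 0.05 over all genes tested. The ± of a log2 fold change is a standard error worked back from the test, as its absolute value over the square root of the F statistic.

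The 4 libraries held 462 (tumor) to 7763 (blood) cells with a median of 3132 to 8663.5 UMIs per cell, and 2 to 23 cells per library carried a barcode that occurred in another library. A single hashtag was assigned to 89.6% to 91.9% of cells in blood, marrow and spleen but to 47.0% in tumor, where 4 sums of 5 to 23 mature neutrophils remained. With 1 library per tissue, tissue and library cannot be told apart in any comparison between tissues. The marker lists of the 4 classes hold the genes of the class rules, so their levels are not independent of the classes. The summed level of the immature neutrophil list had a median of 97460 CPM in non-cycling immature cells and 65.3 CPM in splenic Kit-positive cells, and that of the monocyte list was at least 6083 CPM in every sum of monocytes from blood, marrow and spleen. The mature neutrophil list did not set mature cells above immature ones in marrow. Its medians there were 376412 CPM in non-cycling immature and 308730 CPM in mature cells. In the mature class of the tumor the mature neutrophil list reached a median of 41831 CPM against 176168 CPM in blood. The 5 macrophage markers there summed to 747 to 2464 CPM against 83.9 to 119 CPM in blood, and the Kit-positive list, with 4 of 9 genes seen and Mpo and Elane at 0, to 102 to 187 CPM against 14.5 to 26.3 CPM. The epithelial and tumor list, with 2 of 5 genes seen and Epcam and Krt5 at 0, had medians of 5.76 CPM in tumor and 0.873 CPM in blood.

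Clustered histone RNA was highest in groups rich in dividing cells, in marrow and also in spleen. Cycling immature neutrophils of marrow held 7969 ± 930.1 CPM from all members together (SD, n = 8; lowest 6803, median 7851, highest 9895), and non-cycling ones held 331 ± 26.5 CPM (n = 8; 288, 332 and 369), with no overlap. Marrow monocytes had the highest group mean at 10204 ± 1664 CPM (n = 8; 7187, 10577 and 12066), followed by marrow Kit-positive cells at 6563 ± 1100 CPM (n = 8; 4939, 6252 and 8438), and the ranges of both groups overlapped that of cycling immature neutrophils. Kit-positive cells of spleen held 3409 ± 382 CPM (n = 8; 3007, 3352 and 4170). Every sum of these marrow and spleen groups, other than the non-cycling immature neutrophils, lay above all sums of mature neutrophils. Spleen monocytes spanned both, at 2257 ± 1310.0 CPM (n = 8; 512, 2362 and 4708), and those with an Mki67 or Top2a UMI held 7517 ± 2444 CPM (n = 7; 4431, 8507 and 10693), which overlapped the range of marrow monocytes. In mature neutrophils the group means were 1151 ± 127 CPM in blood (n = 8; 1016, 1089 and 1354), 1454 ± 545 CPM in marrow (n = 8; 853, 1321 and 2466) and 956 ± 93.5 CPM in spleen (n = 8; 888, 925 and 1169).

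**Figure D1:**
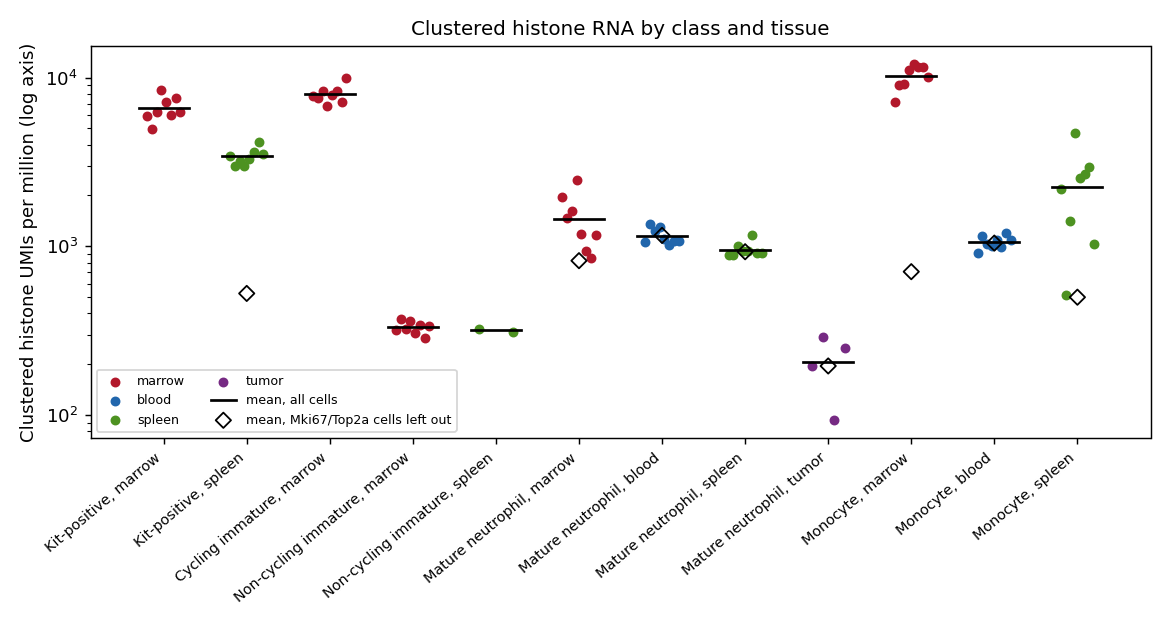
Summed level of all 67 clustered histone genes (CPM, log axis) in each class and tissue. Dots are hashtag sums, bars are group means, and open diamonds are means after cells with an Mki67 or Top2a UMI were left out. Marrow monocytes fall from a mean of 10204 to 707 CPM when those cells are left out, whereas blood mature neutrophils stay near 1151 CPM (1161 CPM without them).

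The lowest group mean was that of tumor mature neutrophils, 208 ± 85.8 CPM (n = 4). The 4 sums of mature neutrophils held 195, 291, 93.3 and 251 CPM, from 10, 23, 5 and 20 cells, all below every blood sum. Over all 180 tumor cells of the class, whatever their hashtag, the level was 257 CPM (exact Poisson 95% interval 239 to 275, counting error only). The 70 tumor monocytes gave 233 CPM (213 to 255) against 1056 CPM in the pooled blood monocytes. In the tumor monocytes Hist1h1c, a linker histone gene, had 86 UMIs, Hist1h2bc 70, Hist3h2a 60 and Hist1h1b 17 (7.94 CPM, 4.63 to 12.7). Only 1 hashtag had at least 5 of these cells, so the comparison with blood has no test.

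Cells with an Mki67 or Top2a UMI supplied almost all histone RNA in some groups and little in others. They were 67.1% of marrow monocytes and held 98.9% of the group's member UMIs, and 78.9% of marrow Kit-positive cells, holding 98.5%. In spleen they were 15.2% of monocytes and held 79.6%. In marrow mature neutrophils they were 8.39% of cells and held 61.1%, but in blood mature neutrophils they were 5.48% of cells and held only 7.44%. Without them the group means were 707 ± 54.1 CPM in marrow monocytes (n = 6), 1045 ± 107 CPM in blood monocytes (n = 8), 499 ± 54.9 CPM in spleen monocytes (n = 8), 822 ± 60.4 CPM in marrow mature neutrophils (n = 8; 741, 809 and 926) and 1161 ± 124 CPM in blood mature neutrophils (n = 8; 1012, 1103 and 1361). With these cells left out the group means of blood lay above those of marrow in both classes, and with them below. This split of the cells was chosen after the data were seen. It rests on 1 UMI, and whether dividing cells lacked one was not tested. Pooled marrow mature neutrophils with and without such a UMI held 5406 and 809 CPM. In blood the values were 1050 and 1169 CPM.

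The share of cells with any member UMI, after each cell was thinned to 1000 UMIs, was 68.6% in cycling immature neutrophils of marrow (exact Clopper-Pearson interval 65.0 to 72.0, 6 shallower cells left out) and 30.8% in non-cycling ones (28.3 to 33.3, 7 left out). These intervals cover counting error over pooled cells only, not the spread between hashtags. Unthinned shares were 96.2% and 89.9%, at median depths of 17103 and 8410 UMIs per cell. Thinned shares were 59.8% in blood mature neutrophils and 21.9% in those of tumor, with 19 and 2 cells left out. More than 1% of a cell's UMIs came from members in 33.4% of cycling immature neutrophils and 32.1% of monocytes in marrow, but in 0.0166% of blood mature neutrophils. Unthinned, 86.4% of blood mature neutrophils had a member UMI. Free RNA in the droplets can give such a UMI, and its part was not tested.

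The makeup by histone class also moved with stage. H2B genes supplied 52.0 ± 3.71% of member UMIs in blood mature neutrophils and 51.1 ± 4.89% in splenic ones, against 7.62 ± 0.470% in cycling and 11.7 ± 2.58% in non-cycling immature neutrophils of marrow (SD, n = 8 each). H2A genes supplied 38.8 ± 2.41% in cycling immature cells and 8.44 ± 0.529% in blood mature neutrophils. H3 genes supplied 12.1 ± 0.773% in cycling immature cells and 1.23 ± 0.195% in blood mature neutrophils. H1 held 44.3 ± 2.94% of the small total in non-cycling immature cells. In blood mature neutrophils the H2B sum was 595 ± 30.9 CPM, which lay within the spread of the 606 ± 65.6 CPM of cycling immature neutrophils, while the H3 sum was 14.3 ± 3.11 CPM against 960 ± 123 CPM. Most of that blood H2B sum came from a single gene, Hist1h2bc, with a mean of 478 CPM. Of 16 H2B genes tested, 7 were lower and 2 higher in blood than in marrow mature neutrophils. In blood monocytes H2B held 12.9 ± 1.44%.

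**Figure D2:**
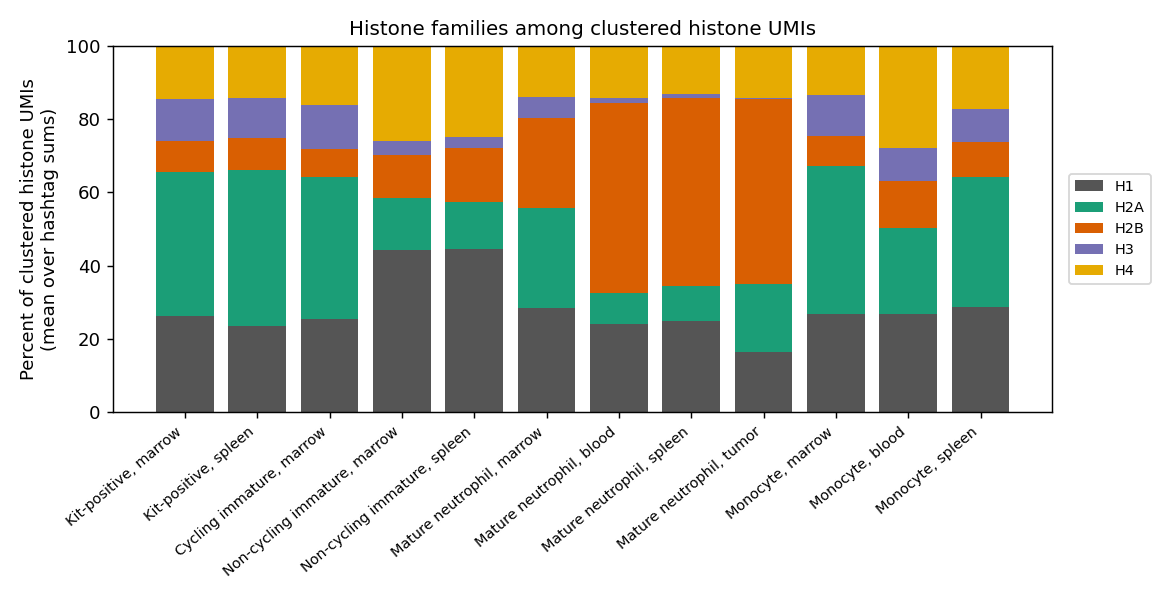
Share of clustered histone UMIs (percent) from H1, H2A, H2B, H3 and H4 genes in each class and tissue, stacked to the whole. H2B takes 52.0% in blood mature neutrophils and 7.62% in cycling immature neutrophils of marrow. In blood mature neutrophils the single gene Hist1h2bc had a mean of 478 CPM of the H2B sum of 595 CPM.

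Of the 67 members, 61 had at least 100 UMIs over the 86 sums and were tested, and 2, Hist1h2aa and Hist1h2ba, had none. Members together had 394431 UMIs, of which the linker histone gene Hist1h1b had 50230 (12.7%), the H2A genes Hist1h2ap 47686 (12.1%) and Hist1h2ae 42523 (10.8%), and the H4 gene Hist1h4d 34412 (8.72%). These are counts and are not set against each other as levels, since genes differ in length. Within a core histone class the coding sequences of members are also near-identical, so that reads can be lost or split between copies. The highest group mean was in marrow monocytes for 43 members and in cycling immature neutrophils for 10. In blood mature neutrophils it was highest for 4: Hist1h2bc (478 CPM), Hist1h4i (105 CPM), and Hist1h2bq and Hist2h2aa2, which stayed under 1 CPM.

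**Figure D3:**
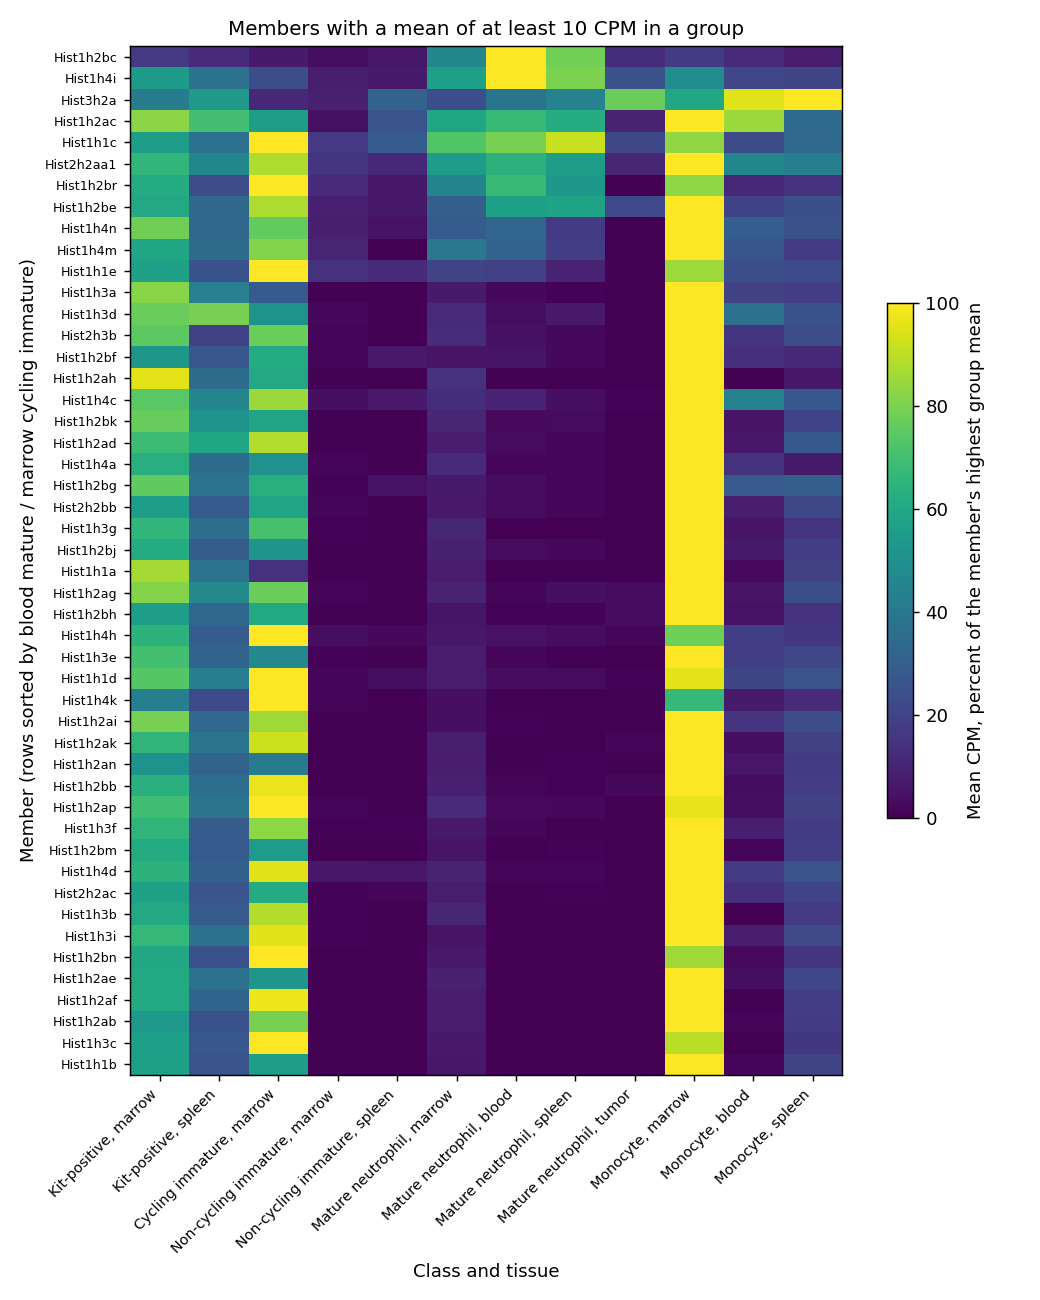
Mean level of the 48 members that reached 10 CPM in some group, as percent of each member's highest group mean, in each class and tissue. Members are ordered by the ratio of blood mature neutrophils to cycling immature neutrophils of marrow. Most reach their highest mean in the dividing marrow groups, while Hist1h2bc and Hist1h4i are highest in blood mature neutrophils.

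Cycling and non-cycling immature neutrophils of marrow were compared to ask which members go with division among cells that meet the same immature rule. The Kit-positive marker list moved with this split, at 246, 1498 and 2433 CPM (lowest, median, highest) in cycling and 83.9, 114 and 168 CPM in non-cycling sums, without overlap, and its part in the result was not tested. Of 61 members tested, 58 rose in cycling cells and 0 fell (0 at an unadjusted p under 0.05 in edgeR, and 0 by DESeq2), where 35.7% of all 12739 genes rose and 15.2% fell. The median log2 fold change of members was 5.05 (5.02 with genes absent from a group at their lower bound), against 0.36 over all genes. All 5 H1, 15 of 16 H2A, 15 of 16 H2B, 10 of 11 H3 and all 13 H4 genes tested rose. Hist2h3c1, Hist3h2a and Hist3h2ba were not called. The H1 gene Hist1h1b stood at 765, 925 and 1144 CPM (lowest, median, highest) in cycling cells and at 5.66, 6.80 and 11.3 CPM in non-cycling cells. Every cycling sum was far above every non-cycling sum, with a log2 fold change of 6.90 ± 0.47 (edgeR adjusted p = 7.6e-23). The H2A gene Hist1h2af, which encodes a core histone, stood at 129, 149 and 175 CPM against 0, 0 and 1.42 CPM, a log2 fold change of 8.21 ± 0.43.

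Other named members were higher too. The H3 gene Hist1h3c stood at 409, 430.5 and 629 CPM against 0, 2.19 and 4.45 CPM (log2 fold change 7.48 ± 0.38), and the H2A gene Hist1h2ab at 317, 563 and 751 CPM against 0, 4.00 and 5.72 CPM (7.04 ± 0.42). The H2B gene Hist1h2bn stood at 84.5, 102 and 132 CPM against 0, 0 and 0.890 CPM. Hist1h2bh, also H2B, had 198 UMIs in cycling cells and none in non-cycling cells, at least 69.3-fold higher against a floor of 3 counts over the group. Log2 fold changes were 7.17 for Hist1h2ak, 7.11 for Hist1h2bm, 5.95 for Hist1h2ap and 6.22 for Hist1h2ae. Hist1h4d, an H4 gene, stood at 719.9, 851 and 1134 CPM against 43.1, 57.7 and 70.6 CPM, a log2 fold change of 3.88 ± 0.26. Among genes that serve histones, 15 of 18 chaperones rose and 0 fell. Asf1b, which hands H3 and H4 to chromatin assembly, rose by 6.34 ± 0.36 on the log2 scale, and Anp32e, a chaperone of H2A.Z, by 4.13 ± 0.21. Of 15 genes of histone mRNA processing and transcription, 13 rose and 2 fell, with Slbp up by 1.45 ± 0.20 and the exonuclease gene Eri1 by 3.45 ± 0.21. Of 15 histone modifying enzymes 9 rose and 5 fell, among them Ezh2, the H3K27 methyltransferase, at 3.49 ± 0.25 and Padi4, which citrullinates histones, at -1.04 ± 0.14. Of 10 non-clustered variants, 7 rose and 0 fell, with H2afx at 5.52 ± 0.27 and the centromeric H3 gene Cenpa at 4.28 ± 0.23. Of all called genes 70.2% were higher, and 45.3% with TMM factors, under which the members stayed at 58 higher and 0 lower.

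Marrow Kit-positive cells and cycling immature neutrophils were compared over the members. The Kit-positive class was not split by Mki67 or Top2a: 65.6% to 88.1% of cells per sum had such a UMI. All cycling immature neutrophils had one by rule. The part of this difference in the result was not tested. Members differed in both directions: 13 of 61 members were higher in Kit-positive cells and 19 lower, where 59.9% and 17.1% of all genes were higher and lower. The member median was -0.11 against 0.87 for all genes. Hist1h1a, a linker histone gene, stood at 94.8, 126 and 161 CPM in Kit-positive cells and 10.7, 18.6 and 37.1 CPM in cycling immature neutrophils. The groups did not overlap, with a log2 fold change of 2.43 ± 0.24 (edgeR adjusted p = 2.7e-15). Hist1h1b, of the same class, did not pass the test (0.02 ± 0.31, adjusted p = 0.96), at 783, 953 and 1131 CPM against 765, 925 and 1144 CPM. Hist1h4i stood at 41.2, 55.8 and 73.0 CPM against 13.4, 26.8 and 31.1 CPM (1.17 ± 0.15), and Hist1h2bc at 53.3, 73.5 and 116 CPM against 24.4, 37.5 and 42.7 CPM (1.14 ± 0.15), neither with overlap. Hist3h2a and Hist1h3a were also higher, by 1.83 and 1.49.

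Among the lower members, Hist1h3c stood at 173, 248 and 353 CPM in Kit-positive cells and at 409, 430.5 and 629 CPM in cycling immature neutrophils (log2 fold change -0.83 ± 0.21). Hist1h4k (-1.09), Hist1h1c (-0.84), Hist1h4d (-0.56) and Hist1h2ap (-0.53) were lower too. Hist1h2ae did not pass the test (0.21 ± 0.27, adjusted p = 0.49). With TMM factors the member counts were 7 higher and 39 lower, and 55.3% of all called genes were higher, against 77.8% with total UMIs. Of 18 chaperones 17 were higher and 1 lower (11 and 2 with TMM factors), among them Npm1, a nucleolar chaperone, at 3.88 ± 0.26. Of 15 modifying enzymes 9 were higher and 4 lower (3 and 7 with TMM factors), Padi4 at -4.02 ± 0.19. H1fx, a linker histone variant outside the clusters, was higher by 4.73 ± 0.31, among 5 of 10 variants higher and 4 lower (3 and 6 with TMM factors). Of 15 mRNA processing and transcription genes 10 were higher and 1 lower (3 and 5 with TMM factors).

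Cells with Mki67 or Top2a were also split by whether UMIs of an S phase list exceeded those of a G2 and M phase list, each of 20 genes. Neither list holds a member or any gene named below for this split, but genes that follow the cell cycle, such as Ccne2, Slbp, Chaf1b and Cenpa, are not independent of it. In cycling immature neutrophils S-leaning cells held 7253 ± 2062 CPM from members (n = 4) and M-leaning cells 9108 ± 741 CPM (n = 7). Of 52 members tested, 3 were higher and 11 lower in S-leaning cells, where 9.74% of all 9224 genes were higher and 3.47% lower, and the medians were -0.45 for members and 0.18 for all genes. The higher members were Hist1h3a (log2 fold change 1.83 ± 0.41), Hist1h1a (1.61 ± 0.32) and Hist1h4i, at 32.6, 44.6 and 55.7 CPM against 17.3, 21.7 and 25.9 CPM (0.97 ± 0.22, edgeR adjusted p = 0.0034). Hist1h4d was lower, at 418, 529 and 638 CPM against 904, 1044 and 1276 CPM without overlap (-0.99 ± 0.17, adjusted p = 0.00013). Hist1h3f (-1.12 ± 0.18), Hist1h4c (-1.08), Hist1h2af (-1.02) and Hist1h3c (-0.92) were lower too, while Hist1h1b (0.41 ± 0.18, adjusted p = 0.14), Hist1h2ap (-0.02 ± 0.16) and Hist1h2ae (-0.08 ± 0.20) did not pass the test. Of 15 genes of histone mRNA processing and transcription, 6 were higher in S-leaning cells and 1 lower. Among them Ccne2, the cyclin that drives entry into S phase, was higher by 3.31 ± 0.27, Slbp by 1.11 ± 0.14 and Casp8ap2 by 1.21 ± 0.17. Chaperones were 9 of 18 higher and 1 lower, with the CAF-1 subunit gene Chaf1b at 2.55 ± 0.33, and variants were 2 of 10 higher and 4 lower, with Cenpa at -2.66 ± 0.20. Modifying enzymes were 0 of 15 higher and 2 lower. With TMM factors 3 members were higher and 16 lower, and 52.2% of called genes were higher, against 73.7%.

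The same split of marrow Kit-positive cells gave 5314 ± 1235 CPM in S-leaning sums (n = 6) and 9204 ± 1578 CPM in M-leaning sums (n = 3). In S-leaning cells 24 of 52 members were lower and 0 higher (0 at an unadjusted p under 0.05 in edgeR, 0 by DESeq2), where 1.84% of all genes were higher and 2.45% lower, and the member median was -0.80 against -0.01. The count of lower members was 13 without marrow replicate 4. Hist1h4d stood at 225, 417 and 527 CPM in S-leaning and 836, 856 and 1007 CPM in M-leaning sums, without overlap (log2 fold change -1.12 ± 0.17, adjusted p = 3.5e-05). The H3 gene Hist1h3f (-1.25 ± 0.16), the H2B gene Hist1h2bb (-1.29 ± 0.21) and Hist1h2ap (-0.80 ± 0.17) were lower, while Hist1h1b did not pass the test (-0.35 ± 0.20, adjusted p = 0.46). Slbp was higher by 1.05 ± 0.16, among 4 of 15 processing genes higher and 1 lower. Chaf1a was higher by 1.07 ± 0.17, among 6 of 18 chaperones higher and 0 lower, and 4 of 10 variants were lower.

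Kit-positive cells of marrow were also split by Mki67 or Top2a alone. In cells with such a UMI 49 of 61 members were higher, where 7.51% of all 12542 genes were higher. The count of lower members was 0 (0 at an unadjusted p under 0.05, and DESeq2 was not run). The share of all genes that were lower is not given here. The levels were 7321 ± 1309 CPM and 903 ± 161 CPM (n = 8 each). Hist1h1b was higher by 4.66 ± 0.34 and Hist1h3c by 5.84 ± 0.42 on the log2 scale, whereas Hist1h2bc did not pass the test (-0.47 ± 0.25, adjusted p = 0.24). In marrow monocytes the same split gave 12160 ± 1695 CPM against 674 ± 79.2 CPM (n = 8 each), with 56 of 61 members higher and 1 lower, where 16.5% of genes were higher and 13.5% lower. Hist1h3c was higher by 8.12 ± 0.44 and Hist1h2ab by 6.96 ± 0.38, and the lower member was Hist3h2a (-1.19 ± 0.30, adjusted p = 0.00081), an H2A gene outside the large cluster.

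Mature and non-cycling immature neutrophils of marrow were compared next. Only the immature arm was filtered by Mki67 or Top2a. Mature marrow cells with such a UMI were 8.39% of the class and held 61.1% of its member UMIs. Of 61 members 47 were higher in mature cells and 0 lower (0 at an unadjusted p under 0.05 in edgeR, 0 by DESeq2), where 29.4% of all genes were higher and 10.3% lower. The member median was 2.42 (2.35 with bounds) against 0.32. When cells with Mki67 or Top2a were left out, 13 of 48 members were higher and 2 lower, where 25.5% and 17.5% of all 11301 genes were, and the member median was 0.83 against 0.09. The mature sums then held 1572 cells in place of 1689, and the fit tested fewer genes. The summed level of the Kit-positive marker list in the mature marrow sums, 104, 1106 and 5458 CPM (lowest, median, highest), was also far above blood, where its median was 20.5 CPM. In replicates 1 to 8, in order, that list stood at 1160, 194, 1053, 5458, 104, 132, 2344 and 2298 CPM. The member levels of the same sums were 1947, 1466, 1619, 2466, 1177, 942, 853 and 1164 CPM. The part of that list in the result was not tested.

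Both kinds of member can be seen in this comparison. Hist1h1b stood at 18.8, 89.3 and 215 CPM in mature and at 5.66, 6.80 and 11.3 CPM in non-cycling immature cells (log2 fold change 3.73 ± 0.49). With Mki67 or Top2a cells left out it stood at 6.46, 12.1 and 21.4 CPM, with a log2 fold change of 0.75 ± 0.27 (edgeR adjusted p = 0.018) and overlap. Hist1h2bc, an H2B gene, stood at 165, 223 and 257 CPM against 6.81, 17.8 and 25.8 CPM, and no mature sum came near an immature sum. Its log2 fold change was 3.64 ± 0.17 (edgeR adjusted p = 5.1e-33), and 3.73 ± 0.16 without Mki67 or Top2a cells. Hist1h2ac, an H2A gene beside Hist1h2bc on chromosome 13, had a log2 fold change of 3.69 ± 0.34, and 3.48 ± 0.39 without those cells. With all cells it stood at 12.03, 16.7 and 29.3 CPM against 0, 1.18 and 2.69 CPM. Hist1h4i was higher by 2.71 ± 0.17 without those cells, at 51.0, 57.8 and 88.3 CPM against 2.87, 8.24 and 15.9 CPM. Hist1h1c was higher by 2.13 ± 0.15 without them. Also higher without those cells were Hist1h2be (1.78), Hist2h2aa1 (1.93) and Hist1h2ap (1.40), and Hist1h4d (-0.71) was lower, though with all cells it did not pass the test (0.56 ± 0.27, adjusted p = 0.094). Log2 fold changes with all cells were 4.45 for Hist1h2af, 3.99 for Hist1h2an, 3.94 for Hist1h1a, 3.68 for Hist1h2ab, 3.63 for Hist1h2ae and 2.83 for Hist1h2ap. With TMM factors 42 members were higher and 0 lower, and 56.9% of called genes were higher, against 74.1%.

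**Figure D4:**
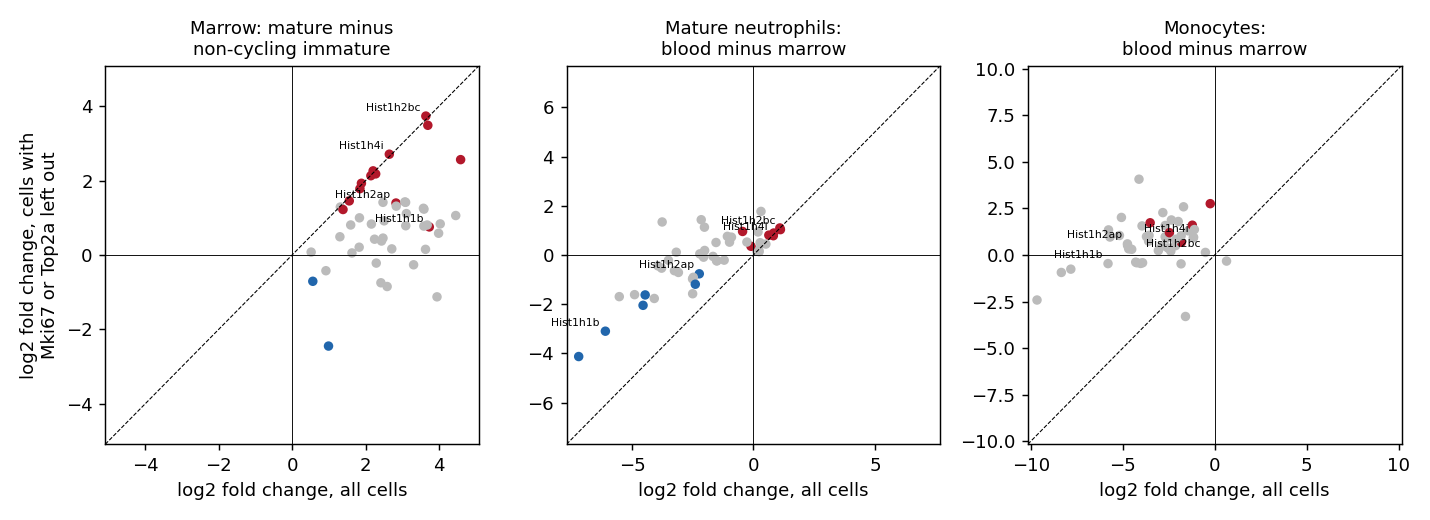
Log2 fold change of each tested member with all cells (x axis) and with Mki67 or Top2a cells left out (y axis), for mature against non-cycling immature neutrophils of marrow, blood against marrow mature neutrophils, and blood against marrow monocytes. Red and blue points are called higher and lower without those cells, grey points are not called, and the dashed line marks equal values. Hist1h2bc lies on the line in the mature against immature panel (3.64 and 3.73), whereas Hist1h1b lies far below it (3.73 and 0.75).

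Among genes that serve histones in the same comparison, 9 of 18 chaperones were higher and 2 lower. Asf1b was higher by 3.28 ± 0.53, and Hira, which deposits the H3.3 variant, lower by 1.28 on the log2 scale (-1.28 ± 0.19). Of 15 processing genes 7 were higher and 3 lower, with Eri1 at 1.42 ± 0.28, and of 15 modifying enzymes 9 were higher and 1 lower, with Ep300, a histone acetyltransferase, at 0.81 ± 0.09. Of 10 variants 7 were higher and 1 lower, H2afj at 1.05 ± 0.09 and H2afz at -0.77 ± 0.11.

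Mature neutrophils of blood and marrow were compared for the step between the tissues. Of 61 members 34 were lower in blood and 4 higher, where 16.3% and 24.7% of all genes were, and the member median was -1.64 against 0.10. Without Mki67 or Top2a cells 6 of 48 members were lower and 7 higher, where 8.67% and 29.7% of all 11301 genes were, and the member median was 0.12 (0.13 with bounds). Hist1h1b fell from 18.8, 89.3 and 215 CPM in marrow to 0, 1.23 and 2.59 CPM in blood, without overlap, by 6.09 on the log2 scale (-6.09 ± 0.55, adjusted p = 6.1e-16). With Mki67 or Top2a cells left out it was still lower (-3.10 ± 0.32, 6.46, 12.1 and 21.4 CPM in marrow). Hist1h3c (-7.19 ± 0.67 with all cells, -4.13 ± 0.56 without those cells) and Hist1h2ab (-4.46 ± 0.47 and -1.62 ± 0.35) were lower both ways. Log2 fold changes with all cells were -4.89 for Hist1h2af, -3.93 for Hist1h2ae, -3.76 for Hist1h1a, -3.25 for Hist2h2ac, -3.17 for Hist1h2an, -2.39 for Hist1h4d and -2.23 for Hist1h2ap.

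The members that were higher in blood formed a short list. Hist1h2bc stood at 439, 478 and 519.6 CPM in blood and 165, 223 and 257 CPM in marrow (log2 fold change 1.11 ± 0.13, adjusted p = 4.3e-12), and every blood sum was above every marrow sum. Hist1h4i stood at 85.5, 109 and 132 CPM against 47.6, 57.0 and 83.6 CPM (0.82 ± 0.13), and Hist1h2be at 72.3, 84.6 and 103 CPM against 27.6, 47.4 and 62.6 CPM (0.83 ± 0.14). Hist2h4, an H4 gene, was higher by 1.09. With Mki67 or Top2a cells left out these 4 were higher again (Hist1h2bc 1.03, Hist1h4i 0.78, Hist1h2be 0.89, Hist2h4 1.10). Hist1h4h (0.96), Hist3h2a (0.81) and Hist1h1e (0.35) were then higher too. The mature marrow sums are shared with the comparison above, so the higher values of Hist1h2bc at both steps are given as its levels: 17.8, 223 and 478 CPM as medians of non-cycling immature, mature marrow and mature blood cells. The erythroid list, made mostly of globin genes, had a median of 2829 CPM in blood mature sums and 15.4 CPM in marrow, and its part in the result was not tested. Of 18 chaperones 10 were lower and 0 higher, Asf1b by 4.10 (-4.10 ± 0.50), 6 of 15 processing genes were lower and 1 higher, and 6 of 15 modifying enzymes were lower and 4 higher, with Kmt5a, the H4K20 methyltransferase, at -1.30 ± 0.12. Of 10 variants 7 were lower and 2 higher, H2afx at -1.72 ± 0.34 and H3f3b, a gene for the replication-independent H3.3, at 0.45 ± 0.07.

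**Figure D5:**
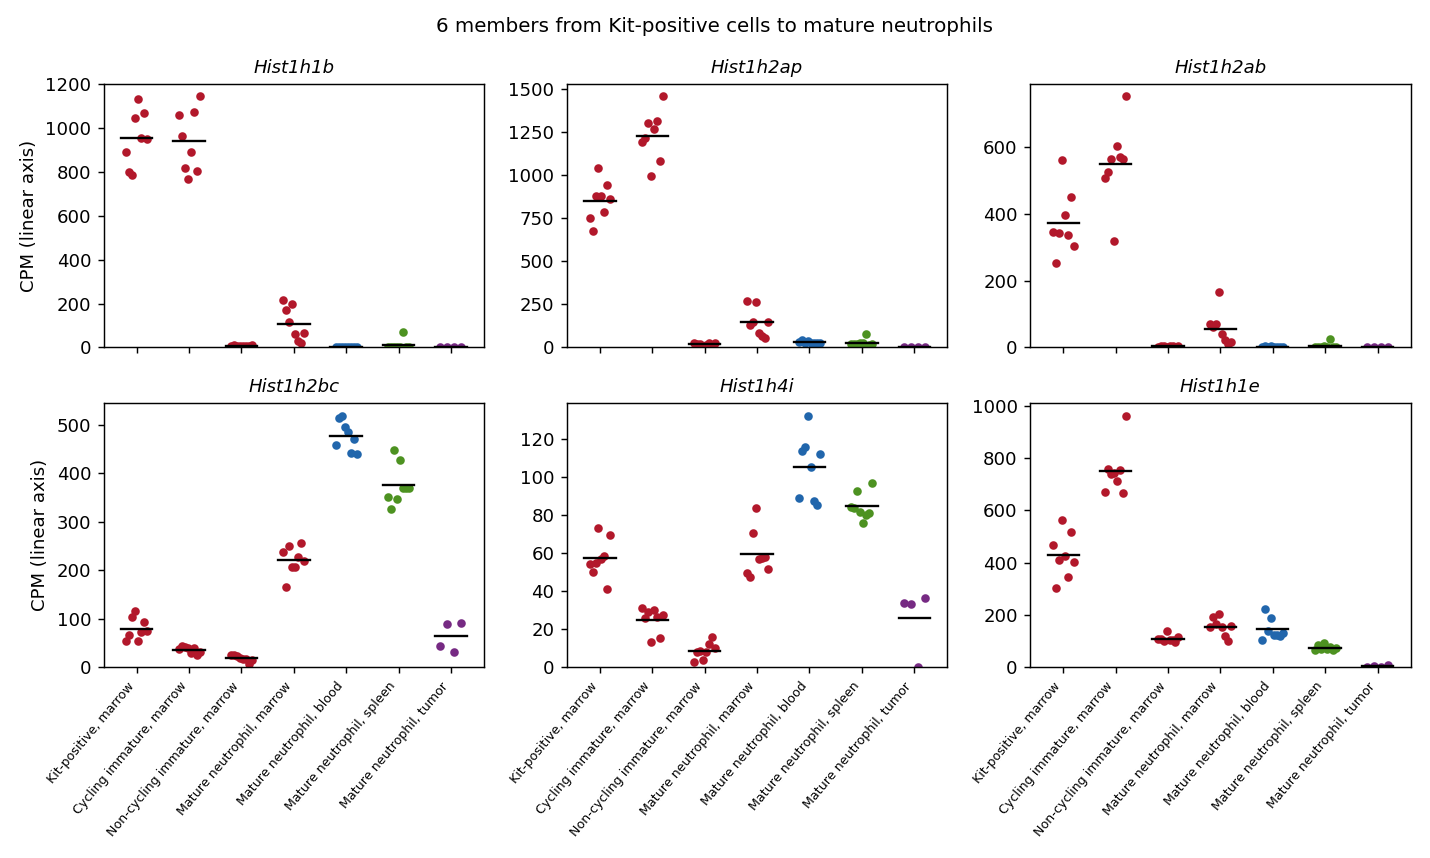
Level (CPM, linear axis) of Hist1h1b, Hist1h2ap, Hist1h2ab, Hist1h2bc, Hist1h4i and Hist1h1e in 7 class and tissue groups. Dots are hashtag sums and bars are means. Hist1h1b has a median of 925 CPM in cycling immature neutrophils and 1.23 CPM in blood mature neutrophils, while Hist1h2bc goes from 37.5 to 478 CPM.

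Mature neutrophils of spleen and blood were compared across the periphery. Other cell types' markers moved with the comparison without overlap: the erythroid list was at 2.43 to 12.99 CPM in spleen and 123 to 12496 CPM in blood, and the B cell list at 268 to 351 CPM in spleen and 68.9 to 113 CPM in blood. Their part in the result was not tested. Of 61 members 3 were higher in spleen and 3 lower, where 7.43% and 4.13% of all genes were, and the median was -0.18 (-0.30 with bounds) against 0.11. The 3 higher members, Hist1h3c (3.50), Hist1h1b (2.87 ± 0.71) and Hist1h2bm (2.73), were all lost without spleen replicate 6, after which 0 members were higher. Hist1h1b stood at 0, 1.58 and 68.8 CPM in spleen and 0, 1.23 and 2.59 CPM in blood, and the second highest spleen sum was at 2.96 CPM. The Kit-positive marker list was at 2587 CPM in that sum and at 27.5 to 453 CPM in the other 7. Hist1h1e, a linker histone gene, was lower in spleen, at 63.8, 71.1 and 93.6 CPM against 104, 127 and 223 CPM, without overlap (log2 fold change -0.96 ± 0.15, adjusted p = 1.1e-06). Hist1h4c was lower by 1.41 (-1.41 ± 0.33), and Hist1h2bc stood at 327, 369.8 and 449 CPM against 439, 478 and 519.6 CPM (-0.34 ± 0.12, adjusted p = 0.048). Hist1h2ap (-0.10 ± 0.30), Hist1h2ae (0.14 ± 0.51) and Hist1h4d (-0.17 ± 0.34) did not pass the test.

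Without Mki67 or Top2a cells 7 of 48 members were lower in spleen and 0 higher (0 at an unadjusted p under 0.05; DESeq2 was not run on these cells), where 4.42% and 6.64% of all genes were, and the member median was -0.55 (-0.62 with bounds) against 0.07. The 7 were Hist1h1e (edgeR adjusted p = 1.0e-10), Hist1h3e (-1.68), Hist1h3f (-1.75), Hist1h4c (-1.55), Hist1h4n (-1.07), Hist1h2ae (-0.92) and Hist1h2ap (-0.65). With TMM factors and all cells 2 members were higher and 6 lower, and 30.7% of called genes were higher, against 64.3% with total UMIs. Of the genes that serve histones, 3 of 18 chaperones were higher, with the H3.3 remodeler Atrx at 0.50 ± 0.10, 1 of 15 processing genes and 5 of 15 modifying enzymes were higher, and 2 of 10 variants were lower, among them H3f3b at -0.35 ± 0.07.

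Mature neutrophils of tumor and blood were compared over 4 and 8 sums. Of 61 members 11 were lower in tumor and 0 higher in edgeR (0 at an unadjusted p under 0.05), where 15.3% and 28.2% of all genes were lower and higher. DESeq2 called 11 members higher, all at 0.339 CPM or less in blood and 7 of them without any tumor UMI. In tumor 45 members had no UMI, so that the fitted median of -1.90 depends on the prior count, and it was -1.07 with bounds over the members that allow a fold, against 0.25 for all genes. Hist1h1e stood at 0, 1.52 and 9.11 CPM in tumor and 104, 127 and 223 CPM in blood (log2 fold change -5.04 ± 0.52, adjusted p = 5.2e-14). Hist1h2bc stood at 31.1, 65.2 and 91.1 CPM against 439, 478 and 519.6 CPM (-2.64 ± 0.24, adjusted p = 3e-16), and Hist1h4i at 0, 33.6 and 36.4 CPM against 85.5, 109 and 132 CPM (-1.69 ± 0.30). None of these 3 overlapped between tumor and blood. Hist1h2ap had no tumor UMI against 24.2, 27.0 and 40.7 CPM in blood, at least 7.20-fold lower, and the bounds were 4.24-fold for Hist1h2br and 2.60-fold for Hist1h4n. Hist1h2ac (-1.89) and Hist2h2aa1 (-1.80) were also lower, as were Hist1h1c, Hist1h2be and Hist2h4. Hist1h1b, Hist1h2ae and Hist1h4d did not pass the test (adjusted p = 0.68, 0.60 and 0.13).

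These tumor values rest on 58 cells. Marker lists of other cell types moved both ways in the same sums. Higher in tumor were the macrophage list, at 1201 CPM (median) against 96.1 CPM in blood, and the monocyte list, at 2504 CPM against 316 CPM. The platelet list was also higher, at 595 CPM against 11.8 CPM, with Gp9 and Itga2b at 0. Lower medians in tumor were those of the erythroid (0 against 2829 CPM), B cell (44.0 against 85.0 CPM) and dendritic lists (2.28 against 8.16 CPM). The T and NK cell list had medians of 18.2 and 20.7 CPM, and ranged from 0 to 1187 CPM against 6.95 to 34.5 CPM in blood. Whether these marker RNAs were RNA of other cells, free RNA or RNA of the neutrophils cannot be told apart here. Their part in the result was not tested. Without Mki67 or Top2a cells 14 of 48 members were lower and 0 higher (0 at an unadjusted p under 0.05), where 16.2% and 27.9% of all genes were. The count of lower members was 2 with the stricter hashtag rule and 5 with stricter class rules. With TMM factors 14 members were lower and 0 higher, and 42.4% of called genes were higher, against 64.8%. Of the genes that serve histones, 9 of 18 chaperones were higher and 0 lower (8 and 1 with TMM factors), 6 of 15 processing genes higher and 1 lower (2 and 2), 7 of 15 modifying enzymes higher and 3 lower (4 and 6), and 4 of 10 variants higher and 3 lower (3 and 3). Dot1l, the H3K79 methyltransferase, was higher by 4.78 ± 0.32 and the linker variant gene H1f0 by 4.67 ± 0.64, while Padi4 was lower (-4.39 ± 0.41).

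Blood monocytes and blood mature neutrophils had overlapping totals, 1061 ± 91.8 CPM and 1151 ± 127 CPM (n = 8 each), but differed in single members. Of 61 members 38 were higher in monocytes and 6 lower, where 49.4% and 26.3% of all genes were, and the median was 1.95 (2.03 with bounds) against 0.60. Without Mki67 or Top2a cells 32 of 48 were higher and 6 lower, where 50.5% and 28.4% of all genes were. Hist2h2ac, an H2A gene of the chromosome 3 cluster, stood at 34.8, 56.2 and 65.3 CPM in monocytes and 0.515, 2.01 and 6.75 CPM in neutrophils (log2 fold change 4.16 ± 0.35, adjusted p = 3e-19). Hist1h1b stood at 15.7, 30.8 and 42.6 CPM against 0, 1.23 and 2.59 CPM (4.30 ± 0.66), and Hist1h4d at 104, 158 and 180.4 CPM against 5.72, 10.7 and 42.0 CPM (3.23 ± 0.28). All monocyte sums were above all neutrophil sums for these 3 genes. Hist1h3e (3.24 ± 0.28), Hist1h2bg (2.96), Hist1h2ae (2.72) and Hist1h1d (2.62) were higher too, and Hist1h2ap did not pass the test (0.56 ± 0.31, adjusted p = 0.095).

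The 6 members that were lower in blood monocytes were Hist1h2bc, Hist2h3c1, Hist1h2br, Hist1h4i, Hist1h1c and Hist1h2be. Hist1h2bc stood at 36.1, 59.7 and 87.3 CPM in monocytes against 439, 478 and 519.6 CPM in neutrophils (log2 fold change -3.02 ± 0.15, adjusted p = 6.5e-33), with no overlap. The log2 fold changes of the others were -2.51, -2.36, -2.19, -1.75 and -1.56, in the order named. With TMM factors 30 members were higher and 10 lower, and 48.4% of called genes were higher, against 65.3%. Of 18 chaperones 15 were higher and 0 lower (9 and 1 with TMM factors), Npm1 at 4.29 ± 0.28, 8 of 15 processing genes were higher and 0 lower (6 and 5), and 7 of 15 modifying enzymes were higher and 6 lower (6 and 7), Hdac2, a histone deacetylase, at 3.27 ± 0.28 and Padi4 at -2.54 ± 0.17. Of 10 variants 6 were higher and 1 lower (3 and 5), H1f0 at 4.31 ± 0.37.

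Blood and marrow monocytes were compared as were the mature neutrophils. Of 61 members 53 were lower in blood and 1 higher, where 24.7% and 17.1% of all genes were, and the median was -2.69 against -0.07. Hist1h1b stood at 15.7, 30.8 and 42.6 CPM in blood and 1086, 1677 and 2148 CPM in marrow (log2 fold change -5.80 ± 0.42, adjusted p = 6.6e-21). Hist1h3c stood at 0, 1.39 and 2.32 CPM against 319, 394 and 535 CPM (-8.34 ± 0.47), and Hist1h3b had no UMI in blood against 907 in marrow, at least 142-fold lower. Neither gene overlapped between the tissues. Hist1h2ah was at least 18.3-fold lower, and log2 fold changes were -7.82 for Hist1h2af, -5.77 for Hist1h2ab, -5.69 for Hist1h2bm, -5.18 for Hist1h1a, -4.74 for both Hist1h2ap and Hist1h2ae, and -2.55 for Hist1h4d. Hist3h2a was the member that was higher in blood, at 18.1, 22.9 and 30.4 CPM against 7.09, 13.6 and 19.8 CPM with overlap (0.65 ± 0.23, edgeR adjusted p = 0.015). Without Mki67 or Top2a cells it was not called (-0.33 ± 0.30, adjusted p = 0.71). The Kit-positive list was at 76.5, 122 and 191 CPM in blood monocytes and 4193, 5118 and 6703 CPM in marrow monocytes, and its part in the result was not tested. Asf1b was lower by 7.18 (-7.18 ± 0.47) among 16 of 18 chaperones lower and 1 higher, and the chaperone Nasp by 2.81 (-2.81 ± 0.18). Of 15 processing genes 11 were lower and 1 higher, Slbp at -1.91 ± 0.20, of 15 modifying enzymes 9 were lower and 2 higher, Ezh2 at -2.19 ± 0.20, and of 10 variants 7 were lower and 0 higher, Cenpa at -4.47 ± 0.26.

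Without the Mki67 or Top2a cells no member was called lower in blood monocytes. Of 48 members 5 were then higher in blood and 0 lower in edgeR (2 at an unadjusted p under 0.05; DESeq2 was not run on these cells), where 1.34% and 1.28% of all genes were, and the member median was 0.87 (0.89 with bounds) against -0.04 over all genes. Hist1h1e stood at 170, 186 and 214 CPM in blood (n = 8) and 95.3, 121 and 144 CPM in marrow (n = 6), without overlap (log2 fold change 0.68 ± 0.15, adjusted p = 0.0025). Hist1h4c stood at 47.6, 57.0 and 67.0 CPM against 5.09, 19.1 and 36.4 CPM (1.60 ± 0.33), also without overlap. Hist1h2ac (2.75 ± 0.50), Hist1h3f (1.73 ± 0.43) and Hist1h3e (1.20 ± 0.24) were the others.

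The blood against marrow difference was then set between monocytes and mature neutrophils by a term for the difference of differences, without Mki67 or Top2a cells. It was called for 8 of 48 members, 7 higher in monocytes and 1 lower, where 1.93% and 10.2% of all genes were. Hist1h1b was 2.63 ± 0.41 higher on the log2 scale (edgeR adjusted p = 2.6e-06). Its blood against marrow value was -3.10 in neutrophils, and in monocytes it was not called. Hist1h2ab (2.97 ± 0.61), Hist1h3c (3.19 ± 1.12), Hist1h2ac (2.26 ± 0.58), Hist1h3f (1.82 ± 0.62), Hist1h4d (1.57 ± 0.38) and Hist1h2ap (1.36 ± 0.29) were the other higher ones. Hist1h2bc was the 1 lower member (-0.89 ± 0.26, adjusted p = 0.014).

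Kit-positive cells of spleen and marrow were compared for progenitors outside the marrow. Of 61 members 47 were lower in spleen and 0 higher (1 at an unadjusted p under 0.05 in edgeR, 0 by DESeq2), where 17.7% and 17.5% of all genes were, and the median was -0.84 against -0.06. By class of histone the medians were -1.13 for H1, -0.77 for H2A, -0.86 for H2B, -0.83 for H3 and -0.89 for H4. Hist1h1b stood at 251, 464 and 557 CPM in spleen and 783, 953 and 1131 CPM in marrow, without overlap (log2 fold change -1.13 ± 0.31, adjusted p = 0.0024). Hist1h2bn stood at 22.6, 24.3 and 33.2 CPM against 39.3, 60.7 and 90.0 CPM (-1.25 ± 0.19), and Hist1h1a at 38.4, 54.8 and 81.1 CPM against 94.8, 126 and 161 CPM (-1.21 ± 0.21). For neither gene did the tissues overlap. Hist1h2br (-1.41), Hist1h2ah (-1.39), Hist1h4n (-1.35), Hist1h2ai (-1.21), Hist1h3f (-1.20), Hist1h4h (-1.19), Hist1h4d (-1.07), Hist1h2ap (-0.85) and Hist1h2ae (-0.71) were lower.

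The 2 tissues also differed in the kinds and the division of Kit-positive cells. Cells with Mki67 or Top2a were 78.9% in marrow and 52.1% in spleen. The Kit-positive marker list stood at 7119, 9866 and 13690 CPM in marrow and 562, 763 and 2119 CPM in spleen. The T and NK cell list, with 2 of 5 genes seen in marrow, ranged from 229 to 359 CPM there and 25.6 to 111 CPM in spleen. Medians in marrow and spleen were 171 and 5.68 CPM for the platelet list and 67.7 and 321 CPM for the dendritic list. The B cell list had medians of 72.6 and 141 CPM, with highest sums of 6595 and 13730 CPM. The part of these lists in the result was not tested. With Mki67 or Top2a cells left out and at least 5 cells a sum, 10 of 61 members were lower in spleen. This was a smaller share than the 21.7% of all 12542 genes that were lower. The count of higher members was 0 (0 at an unadjusted p under 0.05, and DESeq2 was not run). The share of all genes that were higher is not given here. The median was -0.28 for members against -0.13 for all genes. Hist1h1e (-1.17 ± 0.21) and Hist1h2bc (-1.25 ± 0.29) were among the 10. With all cells 4 of 18 chaperones were lower and 0 higher, Chaf1b at -0.73 ± 0.20, 2 of 15 processing genes were lower, 3 of 15 modifying enzymes were higher and 1 lower, Kdm6b, an H3K27 demethylase, at 1.03 ± 0.14, and 7 of 10 variants were lower, H2afy, which encodes macroH2A, at -1.39 ± 0.14.

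Cycling immature neutrophils of spleen could be compared with those of marrow only with at least 5 cells a sum, a rule set after the data were seen. Spleen sums held 5847 ± 2345 CPM from members (n = 8, 96 cells; 3028, 5342 and 9214), which overlapped the marrow range of 6803 to 9895 CPM. Of 61 members 2 were lower in spleen and 0 higher (0 at an unadjusted p under 0.05 in edgeR, 0 by DESeq2), where 0.235% and 0.751% of all 12777 genes were, and the median was -0.40 against 0.02. Hist1h1e stood at 137, 503 and 727 CPM in spleen and 666, 739.8 and 962 CPM in marrow with overlap (log2 fold change -0.65 ± 0.16, adjusted p = 0.022). Hist1h4h was lower by 0.80 (-0.80 ± 0.21, adjusted p = 0.030), and Hist1h1b did not pass the test (-0.26 ± 0.31, adjusted p = 0.81). With TMM factors 16 members were lower and 0 higher, and 15.1% of called genes were higher, against 76.2%. None of the 18 chaperones, 15 processing genes, 15 modifying enzymes and 10 variants was called. In non-cycling immature neutrophils the 2 spleen sums held 311 and 326 CPM, within the marrow range of 288 to 369 CPM.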

How the data were processed

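Single-cell RNA of 4 droplet libraries (blood, bone marrow, spleen and tumor) was analysed. The authors deposited raw UMI counts per gene and cell, made with Cell Ranger 7.0.1 on mm10 per the submitters' processing notes. Library chemistry and the handling of reads that fit several gene copies are not given in the sources used here. Barcode suffixes 1 to 4 were taken as blood, marrow, spleen and tumor; the labels do not state that tie outright.

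Cells with 1 hashtag (count of at least 20 and 3 times the next) were kept, which drops droplets marked by more than 1 hashtag; no doublet caller was run. Hashtags were taken as mice per the labels' protocols, and p-values measure the spread between these sums. Sums per hashtag, tissue and class (at least 20 cells, 5 in tumor) of genes with at least 100 UMIs were fitted together in edgeR 4.0.16 (R 4.3.3, limma 3.58.1) by the quasi-likelihood test, with total UMIs as library size and Benjamini-Hochberg adjustment over all genes; the S and M split had its own fit. DESeq2 1.42.0 was an alternative, as were TMM factors, no filter, cells thinned to 1000 UMIs, the replicate block, leaving out each replicate, stricter hashtags (50 and 10 times) and classes, no cells over 5% mitochondrial UMIs and 20 cells per tumor sum. Fits without Mki67 or Top2a cells, with 5 cells a sum and the term for the difference of differences were chosen after seeing the data. With TMM factors the all-gene median moved by -0.42 (cycling against non-cycling immature cells), -0.73 (Kit-positive against cycling immature cells), -0.22 (mature against immature), -0.11, -0.12 and -0.58 (mature neutrophils of blood against marrow, spleen against blood and tumor against blood), -0.71 (blood monocytes against neutrophils), 0.08 (blood against marrow monocytes), -0.28 and 0.06 (spleen against marrow, cycling immature and Kit-positive cells) and -0.16 and 0.02 (S against M, immature and Kit-positive cells).

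Comparisons that use the same sums are not independent: those of blood mature neutrophils share them, as do those of marrow classes. Members and gene lists were chosen with earlier results of these data known. The genes named were, per comparison, up to 8 called members with the largest change among those at 10 CPM or more in a group, the 4 members with most UMIs (Hist1h1b, Hist1h2ap, Hist1h2ae and Hist1h4d), and up to 4 called genes per list with the smallest adjusted p; others were named after their values were seen, to complete short lists. Hashtags mark the mouse, so same-numbered sums of a tissue pair: mean correlations of their deviations were 0.0879, 0.0662, 0.128, 0.191, 0.233 and -0.0181 in the 6 comparisons within a tissue, against -0.0122, -0.00868, -0.0177, -0.0278, -0.0803 and 0.0181 for other numbers. They rest on 8, 8, 8, 8, 4 and 2 hashtags. With 2 hashtags the values for same and other numbers are opposites by construction, so the last comparison cannot speak to pairing. The scripts (Python 3.11.15, numpy 2.4.6, pandas 2.3.3, scipy 1.17.1) were tested on simulated data.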

Additional observations from a re-analysis of the deposited data

Results flagged for a closer look

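Among 97 group values checked, 10 had a sample far from the others by Dixon's criterion, where chance gives about 1 in 20 groups. Mature neutrophils of spleen replicate 6 held 4 of them: the member total was 1169 CPM (next 1001 CPM), Hist1h1b 68.8 CPM (next 2.96 CPM), Hist1h2ap 77.6 CPM (next 27.3 CPM) and Hist1h2ae 30.8 CPM (next 9.30 CPM). The Kit-positive marker list was at 2587 CPM in the same sum, and its part in these values was not tested. Kit-positive cells of spleen replicate 7 were high for Hist1h2ap (601 CPM, next 487 CPM) and Hist1h2ae (663 CPM, next 504 CPM). Hist1h4d was high in cycling immature neutrophils of marrow replicate 8 (1134 CPM, next 873 CPM) and in mature neutrophils of marrow replicate 4 (198 CPM, next 103 CPM). The lowest values that stood apart were Hist1h4i at 0.0 CPM in the 5 mature neutrophils of tumor replicate 4 (next 33.4 CPM) and Hist1h1c at 87.4 CPM in marrow monocytes of replicate 1 (next 127 CPM).

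The blood against marrow difference was itself tested between monocytes and mature neutrophils without Mki67 or Top2a cells, and 8 of 48 members differed (edgeR adjusted p under 0.05). The named ones among them were Hist1h3c (3.19), Hist1h2ab (2.97), Hist1h1b (2.63), Hist1h4d (1.57), Hist1h2ap (1.36) and Hist1h2bc (-0.89), as log2 values of monocytes minus neutrophils.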

How the results depend on the processing

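Without high-mitochondrial cells, and with no filter on low counts, all 22 member counts stayed within 1.5 times, and 116 and 114 of 116 named members kept their call. The thinned fit tested fewer members (31 of 61, and 14 of 52 for the S and M split). Thinned counts were 28 higher for cycling against non-cycling immature cells, 3 higher and 9 lower for Kit-positive against cycling immature cells, 11 higher for mature against immature cells, 9 lower for blood against marrow mature neutrophils, 0 higher for spleen against blood, 2 lower for tumor against blood (Hist1h2ac 0.70), 14 higher for blood monocytes against neutrophils, 23 lower for blood against marrow monocytes, 15 lower for splenic Kit-positive cells, and 1 and 9 lower for S against M in immature and Kit-positive cells. Thinned member shares of UMIs were 0.0374% and 0.0287% in non-cycling immature cells of marrow and spleen, 0.297% in splenic Kit-positive cells and 0.771% in marrow monocytes.

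Without Mki67 or Top2a cells the counts were 13 higher for mature against immature cells (Hist1h1a -1.13, Hist1h4d -0.71), 6 lower and 7 higher for blood against marrow neutrophils (Hist1h1a 1.34, Hist1h2an 0.11), 0 higher and 7 lower for spleen against blood (Hist1h2ae -0.92), and 0 lower and 5 higher for blood against marrow monocytes (Hist1h1a 1.05, Hist1h2ab 1.35, Hist1h2ae 0.51, Hist1h2ap 0.60, Hist1h2bm 0.96, Hist1h4d 0.38). Member shares were then 0.0526% in splenic Kit-positive cells, 0.0822% in marrow mature neutrophils, and 0.0707% and 0.0499% in marrow and spleen monocytes. For Kit-positive against cycling immature cells, higher counts were 7 with DESeq2, 7 with TMM (39 lower; Hist1h1b -0.73) and 6 with stricter classes. Lower counts for spleen against blood were 7 with DESeq2 and 6 with TMM, with 0 higher under stricter classes. Lower counts were 5 and 2 for tumor against blood with stricter classes and hashtags, 4 and 16 for spleen against marrow cycling immature cells with DESeq2 and TMM, and 13 for S against M Kit-positive cells with stricter classes. Stricter rules gave shares of 0.923% (cycling immature, marrow), 0.0297% (non-cycling, spleen) and 0.0309% (tumor; 0.0462% with stricter hashtags). The cause of these moves was not tested. S against M in immature cells gave no value with stricter hashtags or classes.

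Leaving out 1 replicate gave 0 (without spleen replicate 6) to 3 higher members for spleen against blood, and 13 (without marrow replicate 4) to 27 lower for S against M Kit-positive cells. With the replicate block, member counts were 58 higher and 0 lower (cycling against non-cycling), 12 and 20 (Kit-positive against cycling), 46 and 0 (mature against immature), 36 and 7 (blood monocytes against neutrophils), 3 and 9, and 0 and 17 (S against M), and 61 of 65 named members kept their call.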
